A study of Xenopus laevis with 22 samples.

Results

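The genes described here encode centrosomal proteins of the cep series and proteins of the centriolar satellites. They were taken by name: every target whose symbol is cep followed by a number, without cep152, cep63 and cep135, together with pcnt, pcm1, cntrob, nin, azi1, spice1, kiaa0586, hyls1 and mdm1. The rule found 34 of 13475 symbols and 45 of 24383 annotated targets in the Xenopus laevis RNA-seq tables. Of these symbols 23 had 1 target and 11 had 2, and the less abundant target of such a pair is called the second target. All 45 passed the filter on low counts and were tested.

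A centrosome is a pair of centrioles within a pericentriolar matrix that nucleates microtubules, and around it move small granules, the centriolar satellites, that carry centrosomal proteins. A multiciliated cell, such as those of the larval frog epidermis, makes many extra centrioles, and these dock at the cell surface as basal bodies of motile cilia. Multicilin is the coregulator that starts this programme, in a complex with the transcription factors E2f4 or E2f5 and their partner Dp1. The protein roles given below as background are known mainly from human and mouse cells.

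The RNA came from animal caps, explants of embryonic ectoderm, with 20 caps in each library. In the Multicilin groups the caps carried mRNA of Multicilin fused to the hormone-binding part of the human glucocorticoid receptor, and the fusion was switched on with 20 µM dexamethasone at mid-stage 11. The dnE2f4 groups carried the same fusion, were induced in the same way, and also received mRNA of a dominant-negative E2f4. Caps were collected 3, 6 and 9 h after induction, at about stages 13, 16 and 18, with 3 libraries labelled for each group. E2f4-GFP was immunoprecipitated at 6 h from caps without and with induced Multicilin, about 300 caps per condition, with 2 replicates and 1 deposited peak set per condition. Dexamethasone at 20 µM is recorded for the caps with Multicilin and not for those without it. Multicilin and the recorded hormone treatment thus cannot be told apart between the peak sets. Every RNA group held induced Multicilin, so a change with time and ordinary development of the cap cannot be told apart. The series design calls the replicates biological and does not say that they came from separate clutches, so the p-values measure the spread between these libraries.

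The 18 libraries held 9159519 to 38099850 estimated fragments. The e2f4 transcript, which the injected dominant-negative mRNA adds to, stood at 14.1 to 36.1 CPM (counts scaled to the library total) in 8 Multicilin libraries and at 1235 to 11078 CPM in 8 dnE2f4 libraries. Both libraries labelled replicate 2 at 9 h went against their labels, with 1427 CPM in the library labelled Multicilin and 14.2 CPM in the library labelled dnE2f4, and neither entered the fit. Replicate 1 of dnE2f4 at 3 h and replicate 3 of dnE2f4 at 9 h were scored on a different set of 35532 targets and entered the sums by symbol and the fragment shares only. That set holds 56 targets for 33 of the symbols and none for cep170b. This left 14 libraries in the fit. For Multicilin and dnE2f4 caps in turn these were 3 against 2 at 3 h, 3 against 3 at 6 h, and 2 against 1 at 9 h. Markers of the epidermal ectoderm, 6 genes with krt5 under 1 CPM, summed to 26690 to 29170 CPM in Multicilin caps at 6 h and to 27060 to 29140 CPM in dnE2f4 caps. The 4 mesoderm markers summed to at most 3.90 CPM at 6 h, with t, myod1 and myf5 under 1 CPM. The 4 goblet cell markers summed to 565.1 to 652.2 CPM in Multicilin caps at 6 h and to 738.8 to 1127 CPM in dnE2f4 caps, and the 3 neural markers found to 195.5 to 227.1 CPM and 121.1 to 164 CPM. Neither pair of ranges overlapped, and the part of these cells in the results below was not tested.

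The group as a whole was lower in dnE2f4 caps at each time. Its targets held 0.323 to 0.417% of all fragments in Multicilin caps at 3 h, 0.992 to 1.06% at 6 h and 1.26 and 1.34% at 9 h. In dnE2f4 caps they held 0.232 to 0.249%, 0.572 to 0.609%, and 0.667 and 0.682% at the same times. The 0.249 and 0.667% are those of the 2 libraries scored on the other target set, and without them the shares were 0.232 and 0.236% at 3 h and 0.682% at 9 h. The ranges of the groups did not overlap at any of the 3 times. In both kinds of caps the share was higher at 6 h than at 3 h and higher again at 9 h. Since whole caps were sequenced, fewer multiciliated cells and less RNA per cell cannot be told apart.

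At 6 h, 22 of the 45 targets, from 19 of the 34 symbols, were lower with dnE2f4 at an edgeR quasi-likelihood adjusted p under 0.05. That is 48.9% of the members, against 2.57% of the 20043 targets tested. No member was higher, against 0.868% of all targets. The median log2 difference over the members was -0.78, and over all targets 0.03. In 13 of the 22 targets the fall was larger than a factor of 2 (log2 below -1). The CPM of all dnE2f4 libraries lay below those of all Multicilin libraries for 31 members, or 68.9%, against 11.1% of all targets. Libraries of the same replicate number deviated together at 6 h, and with the 6 h groups alone and replicate number as a block 34 of 43 members tested passed, all lower, against 13.8% of all targets. Without Multicilin replicate 3 the count was 13 (179 of 20121 targets in all), without dnE2f4 replicate 2 it was 14 (195 of 20020), and 13 targets passed whichever 6 h library was left out. With both set-aside 9 h libraries kept under their labels edgeR called no target of any gene at 6 h, and 23 members, of 1904 of the 19567 targets tested, then had an unadjusted p under 0.05. Scaled by library size alone, 18 members were lower and none was higher, while calls over all targets went from 516 lower and 174 higher to 384 lower and 297 higher.

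**Figure D1:**
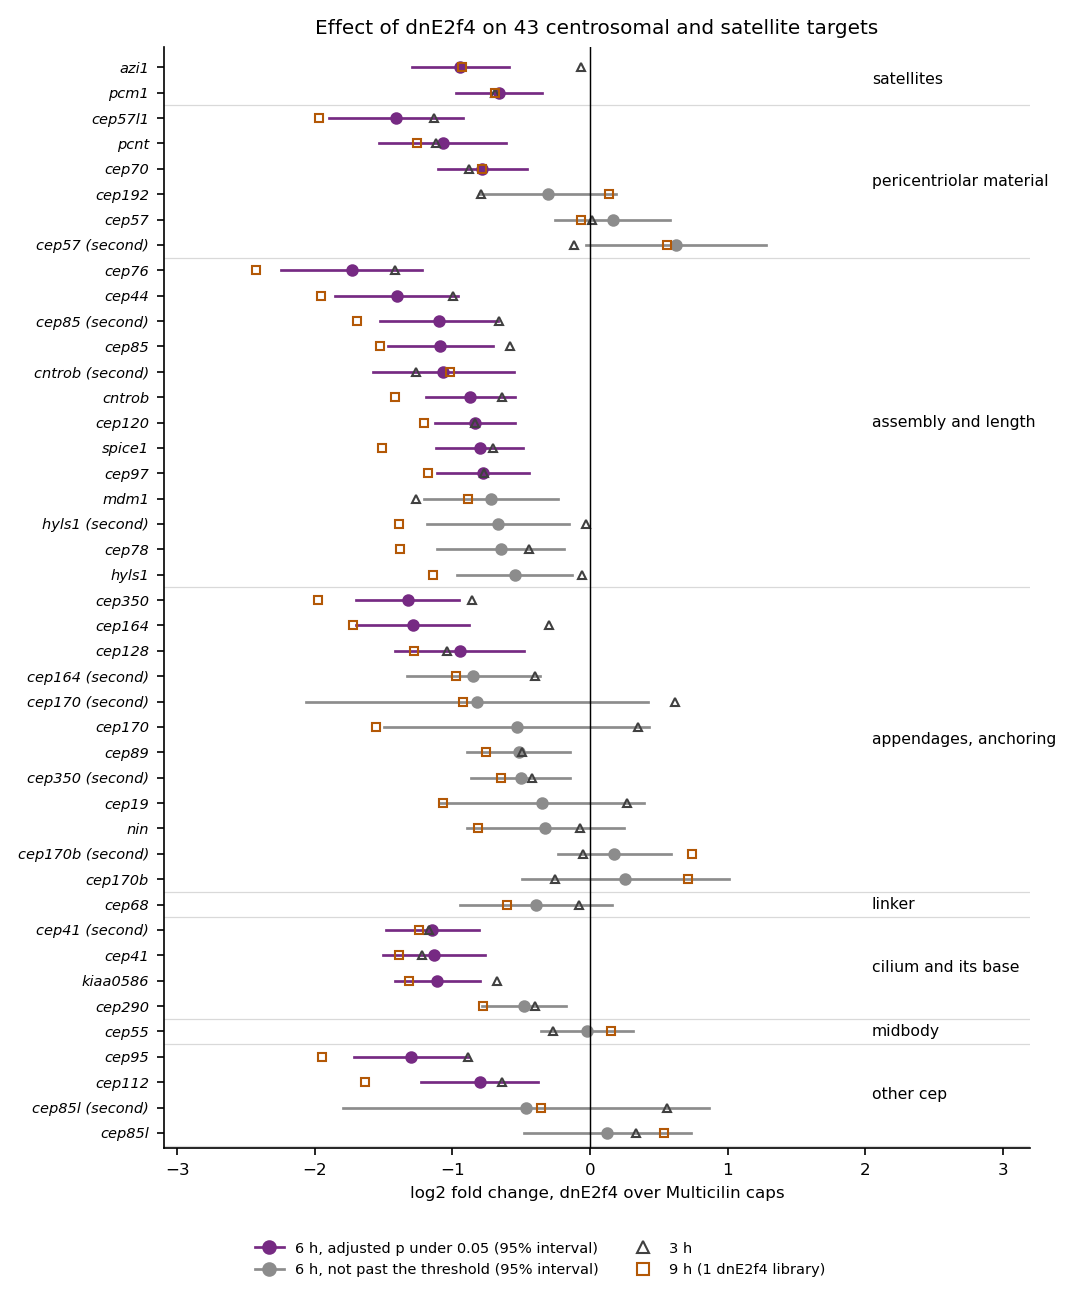
Log2 fold change of dnE2f4 over Multicilin caps for each of 43 targets, grouped by role. Circles with bars give the 6 h value and its 95% interval (n = 3 and 3 libraries), triangles the 3 h value (2 and 3) and squares the 9 h value (1 and 2); the 22 purple targets passed at 6 h, and all of them lie left of 0 at all 3 times.

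Both satellite genes were lower with dnE2f4 at 6 h. Levels of single libraries below are CPM scaled by the trimmed mean of M values (TMM), which corrects for differences in RNA composition. The gene pcm1 (scaffold 14692, 940600 to 995541, JGIv7b assembly) encodes the scaffold protein on which satellites are built. It was the most abundant member per length, at 432 ± 23.3 FPKM (fragments scaled to target length and library total; SD, n = 3) in Multicilin caps at 6 h. Its CPM were 3211, 2996 and 3051 in the Multicilin libraries and 2087, 1958 and 1788 in the dnE2f4 libraries at 6 h. The groups did not overlap, and pcm1 fell by 0.66 ± 0.14 on the log2 scale (SE; edgeR adjusted p = 0.0284). The fall is the smallest among the 22, and the call held with 1 of the 6 libraries left out in turn. The gene azi1, also named Cep131, encodes a satellite protein needed for cilia in several animals. It measured 140, 127 and 140 CPM in Multicilin caps at 6 h and 73.3, 70.6 and 66.8 CPM in dnE2f4 caps. Its fall of 1.92-fold passed (log2 -0.94 ± 0.16, edgeR adjusted p = 0.00897), and the call held whichever library was left out.

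At 3 h azi1 was not called. Its 3 Multicilin libraries stood at 55.9, 73.9 and 53.6 CPM and its dnE2f4 libraries at 68.3 and 47.5 CPM, so the groups overlapped (log2 -0.069, 95% interval -0.46 to 0.32). The dnE2f4 difference was larger at 6 h than at 3 h by 0.87 on the log2 scale (95% interval of the change -1.40 to -0.35), with an unadjusted p of 0.00344 and an edgeR adjusted p of 1.00. For pcm1 the 3 h libraries did not overlap, at 1116, 927 and 790 CPM against 587 and 581 CPM. Its 3 h difference of -0.69 was close in size to that at 6 h and missed the threshold (edgeR adjusted p = 0.122).

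The pericentriolar proteins divided. Among their 6 targets 3 fell at 6 h, cep57l1, pcnt and cep70, and the other 3, cep192 and both cep57 targets, were not called. The gene pcnt (scaffold 43242, 195657 to 274629, minus strand) encodes pericentrin, the large scaffold that anchors γ-tubulin complexes in the matrix. It measured 1001, 1094 and 1010 CPM in Multicilin caps and 485, 576 and 409 CPM in dnE2f4 caps at 6 h. The groups were separate and the fall was 2.10-fold (log2 -1.07 ± 0.21, edgeR adjusted p = 0.0180), held with 3 of 6 libraries left out. The gene cep57l1, a relative of cep57 that helps keep paired centrioles together, was second in level per length at 213 ± 36.0 FPKM (SD, n = 3). It stood at 278, 273 and 396 CPM in Multicilin caps and at 136, 94.9 and 124 CPM in dnE2f4 caps. The lowest Multicilin library was above the highest dnE2f4 library by more than the range within the dnE2f4 group, and cep57l1 fell 2.66-fold (log2 -1.41 ± 0.22, edgeR adjusted p = 0.00588). The γ-tubulin-binding cep70 fell 1.72-fold (log2 -0.78 ± 0.15, edgeR adjusted p = 0.0153), held with 3 of 6 libraries left out.

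The gene cep192 and the more abundant cep57 target were the 2 members called lower from 3 to 6 h, in both kinds of caps. Negative changes, called or not, numbered 5 in Multicilin caps and 7 in dnE2f4 caps. Among those not called was the first cep85l target, under 2 CPM at 6 h, with log2 changes of -0.54 and -0.74. The protein of cep192 gathers the matrix and its kinases at mitosis, and that of cep57 links matrix to centriole. In Multicilin caps cep192 stood at 27.5, 28.5 and 33.5 CPM at 3 h and at 9.96, 11.1 and 8.02 CPM at 6 h. In dnE2f4 caps it stood at 20.7 and 13.5 CPM at 3 h and at 9.02, 7.16 and 7.17 CPM at 6 h. It fell with time in both, 3.14-fold without dnE2f4 (edgeR adjusted p = 7.49e-05) and 2.24-fold with it (edgeR adjusted p = 0.00227). Between the caps at 3 h the libraries did not overlap, and cep192 was lower with dnE2f4 without being called. That log2 difference was -0.79 (95% interval -1.34 to -0.24, edgeR adjusted p = 0.325). Between the caps at 6 h the libraries overlapped, and the log2 difference was -0.31 with a 95% interval of -0.80 to 0.19. The more abundant cep57 target went from 4.83, 6.12 and 5.79 CPM to 2.29, 2.55 and 2.74 CPM in Multicilin caps, a fall of 2.25-fold (edgeR adjusted p = 0.000248). In dnE2f4 caps it went from 5.88 and 5.34 CPM to 2.78, 2.56 and 3.23 CPM, a fall of 2.03-fold (edgeR adjusted p = 0.00157). Its difference between the caps at 6 h was 0.17 (95% interval -0.25 to 0.58), and for the second target 0.63 (-0.03 to 1.28). The second target was not called with time. Its log2 changes were -0.76 in Multicilin caps (95% interval -1.41 to -0.11, edgeR adjusted p = 0.0503) and -0.011 in dnE2f4 caps (-0.73 to 0.70). Of the fragments that mapped to the 2 cep57 targets, 31.5 and 51.3% were uniquely assigned.

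**Figure D2:**
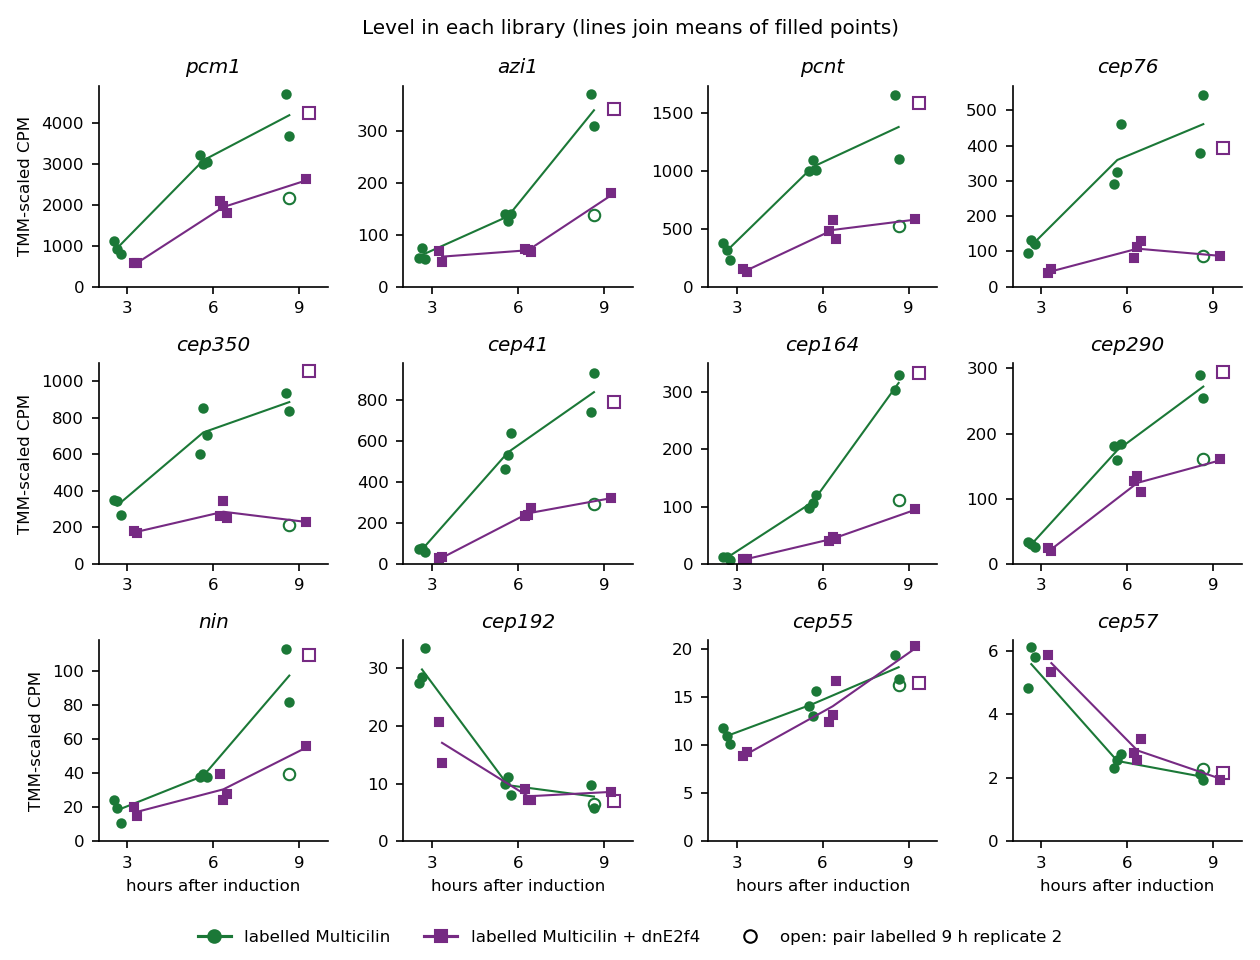
TMM-scaled CPM of 12 members in each library against hours after induction, with Multicilin libraries as green circles and dnE2f4 libraries as purple squares. Open symbols are the pair labelled replicate 2 at 9 h; for pcm1, pcnt, cep76, cep350, cep41, cep164 and cep290 the symbol labelled Multicilin lies with or below the other dnE2f4 library and the symbol labelled dnE2f4 lies with the Multicilin libraries.

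Proteins of centriole assembly and length gave the most calls, 9 of 13 targets. The largest fall of any member was that of cep76 (scaffold 44494, 955783 to 969852, minus strand), whose protein restrains centriole reduplication. It measured 290, 327 and 462 CPM in Multicilin caps at 6 h and 81.6, 113 and 128 CPM in dnE2f4 caps. The groups lay far apart, and the fall was 3.33-fold (log2 -1.73 ± 0.23, edgeR adjusted p = 0.00235). At 3 h it stood at 96.4, 132 and 121 CPM against 37.8 and 49.1 CPM, again without overlap (log2 -1.42 ± 0.27, edgeR adjusted p = 0.0569). The dnE2f4 level at 6 h, 108 ± 23.9 CPM (SD, n = 3), was thus near the Multicilin level of 3 h, 116 ± 18.1 CPM (SD, n = 3).

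The gene cep44, whose protein lies inside the centriole and helps a new centriole become a centrosome, was among the most affected. Its CPM at 6 h were 60.8, 61.9 and 91.1 in Multicilin caps and 24.6, 26.5 and 29.4 in dnE2f4 caps. The groups did not overlap and the fall was 2.65-fold (log2 -1.40 ± 0.21, edgeR adjusted p = 0.00350). Both targets of cep85, a centriole protein that binds the duplication factor Stil, fell together. The more abundant one measured 162, 171 and 244 CPM against 82.3, 84.1 and 104 CPM, a fall of 2.13-fold (log2 -1.09 ± 0.18, edgeR adjusted p = 0.00617). The second measured 81.1, 93.5 and 127 CPM against 39.4, 46.9 and 54.1 CPM, a fall of 2.15-fold (edgeR adjusted p = 0.0109), held with 4 of 6 libraries left out. Thus the 2 loci differed in level and hardly in the size of the fall. Of the fragments that mapped to them, 74.8 and 57.6% were uniquely assigned, so the 2 values need not be independent.

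Both targets of cntrob, which encodes the daughter-centriole protein centrobin, also fell. The first measured 299, 367 and 383 CPM against 167, 206 and 198 CPM, a fall of 1.83-fold (log2 -0.87 ± 0.15, edgeR adjusted p = 0.00874). The second measured 202, 151 and 178 CPM against 110, 72.5 and 69.8 CPM, a fall of 2.09-fold (log2 -1.07 ± 0.24, edgeR adjusted p = 0.0305), held with 2 of 6 libraries left out. Neither pair of groups overlapped. The elongation factor cep120, the duplication factor spice1 and cep97, which caps centrioles with Cp110, fell by 0.84, 0.80 and 0.78 on the log2 scale. The call of cep120 held whichever library was left out, and those of spice1 and cep97 each held with 4 of 6 left out (highest edgeR adjusted p 0.0677 and 0.0914). The other 4 targets of this role were not called: mdm1, a microtubule-binding inhibitor of duplication, cep78, a centriole wall protein, and both targets of hyls1, a centriole protein needed for cilia. Their log2 differences were -0.72, -0.65, -0.55 and, for the second hyls1 target, -0.67, and every 95% interval lay below 0, the nearest bound to 0 being -0.13 for hyls1. All of them passed with the replicate block at 6 h.

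Among 12 targets of appendage and anchoring proteins, 3 fell at 6 h. Appendages are the spokes by which a centriole docks at the membrane or holds microtubules. The distal appendage gene cep164 (scaffold 287959, 4314978 to 4364329, minus strand) measured 97.9, 105 and 120 CPM in Multicilin caps and 40.6, 47.2 and 43.9 CPM in dnE2f4 caps. The groups were separate by more than the range of either, and the fall was 2.45-fold (log2 -1.29 ± 0.19, edgeR adjusted p = 0.00350). At 3 h the same target was low in all 5 libraries, at 12.4, 11.9 and 7.03 CPM against 9.35 and 7.62 CPM, and the groups overlapped. The dnE2f4 difference grew by 0.99 on the log2 scale from 3 to 6 h (95% interval of the change -1.62 to -0.37), with an unadjusted p of 0.00470 and an edgeR adjusted p of 1.00. The second cep164 target did not overlap at 6 h either, at 89.5, 86.2 and 77.0 CPM against 53.1, 45.2 and 41.2 CPM, and narrowly missed (log2 -0.85, 95% interval -1.33 to -0.36, edgeR adjusted p = 0.0599).

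The gene cep350 (scaffold 53263, 7512701 to 7611786, minus strand) encodes a very large protein that recruits Cep19 to the centriole. Its more abundant target measured 600, 854 and 706 CPM in Multicilin caps and 265, 342 and 250 CPM in dnE2f4 caps. The fall was 2.51-fold (log2 -1.33 ± 0.17, edgeR adjusted p = 0.00199). The second target, at 74.6, 86.6 and 76.1 CPM against 58.2, 58.3 and 49.6 CPM, also did not overlap and was not called (log2 -0.50, 95% interval -0.87 to -0.14). Its interval lies wholly above that of the first target, -1.70 to -0.95, although this difference between loci was not tested. The subdistal appendage gene cep128 measured 315, 319 and 340 CPM against 168, 181 and 152 CPM. It fell 1.93-fold (log2 -0.95 ± 0.22, edgeR adjusted p = 0.0340), a call lost whichever library was left out (adjusted p 0.0611 to 0.129).

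The remaining appendage and anchoring targets were not called at 6 h. The gene nin encodes ninein, which anchors microtubules at subdistal appendages, and measured 37.6, 39.4 and 37.9 CPM against 39.2, 24.3 and 27.8 CPM. The groups overlapped through dnE2f4 replicate 1 (log2 -0.32, 95% interval -0.89 to 0.24). The gene cep19, whose protein brings the GTPase Rabl2 to the ciliary base, was the sixth most abundant member per length at 135 ± 35 FPKM (SD, n = 3) and the only one of the top 8 that was not called. It measured 67.6, 85.2 and 122 CPM against 46.6, 80.1 and 88.8 CPM, with overlap, but within each replicate number the dnE2f4 library was the lower one. Without the block its difference was -0.35 (95% interval -1.09 to 0.40), and with it -0.36 ± 0.10 (SE, edgeR adjusted p = 0.0140). The distal appendage gene cep89 did not overlap and differed by -0.52 (95% interval -0.89 to -0.14). Both cep170 targets were under 2 CPM at 6 h, and both cep170b targets had intervals that spanned 0. The second cep170b target was higher with dnE2f4 and did not overlap, at 22.2, 24.1 and 23.9 CPM against 25.3, 29.1 and 24.4 CPM. Its log2 difference was 0.18 (95% interval -0.23 to 0.59). At 9 h, with 1 dnE2f4 library, the differences of the 2 cep170b targets were 0.71 and 0.74, and neither was called.

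The 6 targets of the cilium and its base gave 3 calls at 6 h. Both targets of cep41, whose protein is needed for glutamylation of ciliary tubulin, fell. The more abundant one (scaffold 104110, 466270 to 495825, plus strand) measured 463, 532 and 639 CPM against 232, 237 and 271 CPM. It fell 2.20-fold (log2 -1.14 ± 0.17, edgeR adjusted p = 0.00411). The second, at 213, 212 and 285 CPM against 108, 97.0 and 115 CPM, fell 2.22-fold (edgeR adjusted p = 0.00236). The groups did not overlap at either locus, and the falls were of about equal size. The gene kiaa0586, known as Talpid3 and needed for docking of basal bodies, measured 70.6, 80.8 and 85.1 CPM against 35, 37.9 and 36.3 CPM. Its dnE2f4 libraries were tightly grouped, and the fall was 2.16-fold (log2 -1.11 ± 0.14, edgeR adjusted p = 0.00190).

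The gene cep290, whose protein builds the transition zone at the base of the cilium, measured 181, 159 and 184 CPM in Multicilin caps and 128, 135 and 110 CPM in dnE2f4 caps at 6 h. The groups did not overlap, yet the difference was small and missed the threshold (log2 -0.48 ± 0.14, 95% interval -0.79 to -0.17, edgeR adjusted p = 0.0921). With the replicate block it passed at nearly the same size (log2 -0.49 ± 0.10, edgeR adjusted p = 0.00204). The linker gene cep68, which helps tie the centriole pair together, measured 49.9, 40.1 and 33.1 CPM against 42.7, 29.1 and 20.7 CPM. The groups overlapped (log2 -0.40, 95% interval -0.95 to 0.16), but within each replicate number the dnE2f4 library was the lower one, and with the block cep68 passed (log2 -0.44 ± 0.10, edgeR adjusted p = 0.00617).

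The midbody gene cep55, which acts when dividing cells separate, was not called at 6 h. It measured 14.1, 13.1 and 15.7 CPM in Multicilin caps and 12.4, 13.1 and 16.6 CPM in dnE2f4 caps at 6 h. The groups overlapped fully, with a log2 difference of -0.025 and a 95% interval of -0.36 to 0.31, and the sign turned with the scaling or a library left out. From 3 to 6 h it rose 1.51-fold in dnE2f4 caps (edgeR adjusted p = 0.0160), and in Multicilin caps the log2 change was 0.35 (95% interval 0.01 to 0.68, edgeR adjusted p = 0.0763). Of the other cep genes, cep95 measured 348, 348 and 487 CPM against 129, 173 and 176 CPM. It fell 2.47-fold (log2 -1.30 ± 0.19, edgeR adjusted p = 0.00360). The gene cep112 fell 1.75-fold (log2 -0.80 ± 0.20, edgeR adjusted p = 0.0471), a call lost whichever library was left out (adjusted p 0.0554 to 0.201). Both cep85l targets were under 2 CPM at 6 h and not called.

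At 3 h, 3 members were lower with dnE2f4, both cep41 targets and cep120, against 0.269% of all targets. The first cep41 target measured 73.9, 77.8 and 57.1 CPM in Multicilin caps and 26.4 and 33.3 CPM in dnE2f4 caps. It was 2.33-fold lower (log2 -1.22 ± 0.20, edgeR adjusted p = 0.0331). The gene cep120 measured 106, 103 and 93.6 CPM against 48.6 and 64.2 CPM and was 1.79-fold lower (log2 -0.84 ± 0.15, edgeR adjusted p = 0.0473). The groups did not overlap for 25 of 45 members, or 55.6%, against 13.2% of all targets. The median log2 difference of the members was -0.64, and over all targets -0.014. Of the 45 members 39 were below 0, against 52.2% of all targets. Summed by symbol with the third dnE2f4 library included, 5 of 33 symbols passed, cep76, cep41, pcnt, cep120 and cntrob, against 0.549% of all symbols. The count by target was 0 without Multicilin replicate 1 or 2 or either dnE2f4 library, with 22, 22, 22 and 21 members then at an unadjusted p under 0.05, among 1061, 1220, 1041 and 1139 targets in all. It was 12 without Multicilin replicate 3, where 199 of 20095 targets were lower, and 17 by DESeq2, where 384 of 12262 were. No member passed the test of a change in the dnE2f4 difference from 3 to 6 h, against 0.00499% of all targets, and none did so by DESeq2. At an unadjusted p under 0.05 that test had 2 members, azi1 and cep164, and 827 of all 20043 targets, a like share.

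At 9 h, 16 members were lower with dnE2f4, against 0.918% of all targets, and all 16 were among the 22 of 6 h. This compares 1 dnE2f4 library with 2 Multicilin libraries and takes the spread from the other groups. How far the calls of 6 and 9 h overlap over all targets is not given here. The gene cep76 measured 378 and 544 CPM in Multicilin caps and 86.6 CPM in the dnE2f4 library, 5.37-fold lower (log2 -2.43 ± 0.39, edgeR adjusted p = 0.0140). The first cep350 target measured 936 and 837 CPM against 227 CPM, 3.93-fold lower (edgeR adjusted p = 0.0110). In the dnE2f4 library cep76 stood within, and cep350 below, the range of dnE2f4 caps at 6 h, whereas cep41 (324 CPM), cep164 (96.7 CPM) and kiaa0586 (73.9 CPM) stood above all 3 libraries of that earlier group. Summed by symbol, with 2 libraries in each group, 20 of 33 symbols passed, against 2.84% of all symbols. There cep290 was lower (log2 -0.65, edgeR adjusted p = 0.0414). Without Multicilin replicate 3 the count by target was 1, cep350, of 24 lower in all. Scaled by library size alone 15 members were lower and none was higher, while calls over all targets went from 184 lower and 43 higher to 131 lower and 93 higher, and the median of all targets moved by 0.17.

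Both libraries labelled replicate 2 at 9 h carried the pattern opposite to their labels in these genes too. In the library labelled Multicilin the members held 0.613% of fragments, and in the library labelled dnE2f4 they held 1.38%. The former was lower than the latter for 41 of 45 members and for 22 of the 22 called at 6 h. The same share over all targets was not counted for this pair, so how far the members stand out there was not tested. The gene cep350 stood at 213 CPM in the library labelled Multicilin and at 1055 CPM in the library labelled dnE2f4. For cep164 these were 112 and 334 CPM. For cep55 they were 16.3 and 16.5 CPM.

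From 3 to 6 h most members rose in both kinds of caps. In Multicilin caps 36 of 45 targets rose and 2 fell, against 25.7% and 26.4% of all targets (edgeR adjusted p under 0.05). The median log2 change was 1.60. All Multicilin libraries of 6 h were above all those of 3 h for 38 members, or 84.4%, against 30.8% of all targets. In dnE2f4 caps 31 rose and 2 fell, against 23.9% and 22.3% of all targets, with a median of 1.28. The rises had 30 targets in common, of 36 and of 31, and these comparisons have no library in common. The same overlap over all targets is not given here. Scaled by library size alone the median over all targets moved by -0.25 in Multicilin caps and -0.19 in dnE2f4 caps, and calls over all targets in Multicilin caps went from 5153 higher and 5291 lower to 3935 higher and 7023 lower. In dnE2f4 caps they went from 4787 higher and 4461 lower to 3869 higher and 5699 lower. The members' counts were then 35 higher and 4 lower in Multicilin caps and 28 higher and 3 lower in dnE2f4 caps.

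The change with time and the dnE2f4 difference at 6 h use the same 6 h libraries, so their values are only set side by side. The gene kiaa0586 rose 20.1-fold in Multicilin caps and 14.9-fold in dnE2f4 caps. It went from 4.58, 3.70 and 3.04 CPM to 70.6, 80.8 and 85.1 CPM without dnE2f4. With it, 2.39 and 2.35 CPM became 35, 37.9 and 36.3 CPM. The genes cep112, cep128 and mdm1 rose 16.2, 15.5 and 11.4-fold in Multicilin caps and 14.4, 16.5 and 16.7-fold in dnE2f4 caps. The folds with and without dnE2f4 were close for cep112 and cep128. For kiaa0586 the fold was smaller with dnE2f4 and for mdm1 it was larger, and neither passed the test of a change between times. The first cep164 target rose 10.0-fold without and 5.03-fold with dnE2f4, and azi1 2.17-fold without and 1.18-fold with it. In dnE2f4 caps the change of azi1 was not called (log2 0.24, 95% interval -0.15 to 0.64), nor were those of cep95 (0.52, 0.051 to 0.98) and the second cep85 target (0.23, -0.25 to 0.71). The same held for cep19 (0.63, -0.21 to 1.48), the first hyls1 target (0.43, -0.038 to 0.91) and nin (0.78, 0.13 to 1.44). These last targets rose in Multicilin caps too, and none of them was called for dnE2f4 at 6 h.

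**Figure D3:**
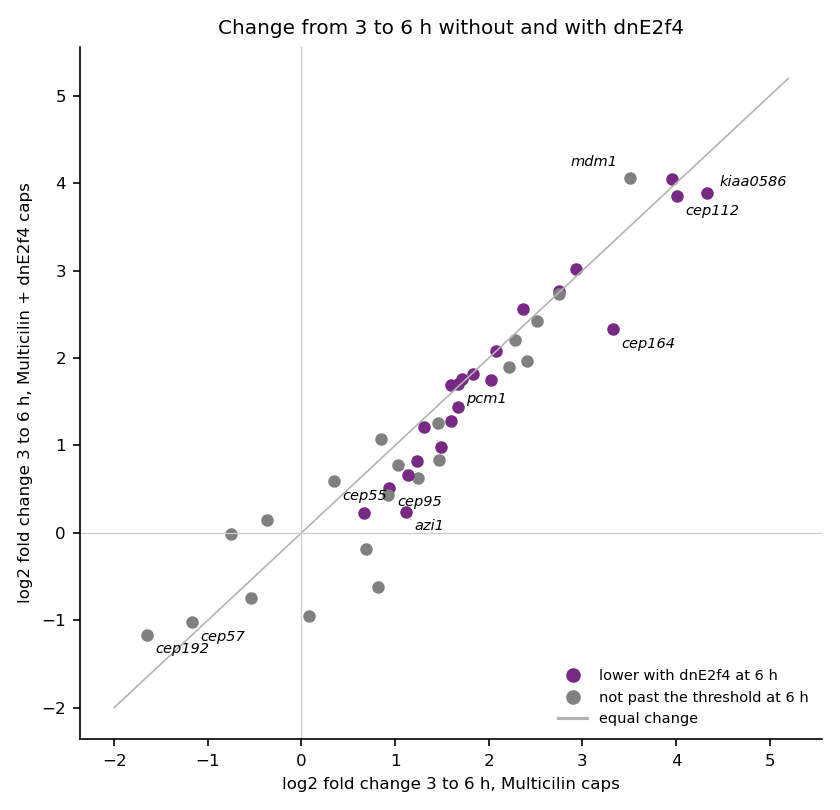
Log2 fold change from 3 to 6 h for 43 targets, in Multicilin caps on the horizontal axis and in dnE2f4 caps on the vertical axis; the grey line marks an equal change. Targets lower with dnE2f4 at 6 h are purple. Most points lie near the line. Among those below it are cep164 and azi1 and, at low counts, both cep170 targets and the second cep85l target. Among those below 0 on both axes are cep192 and cep57.

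From 6 to 9 h, 18 members rose further in Multicilin caps, against 14.3% of all targets, and none fell. The largest rises were of cep68, 3.33-fold, cep164, 2.97-fold, nin, 2.57-fold, and azi1, 2.54-fold. The gene nin went from 37.6, 39.4 and 37.9 CPM to 113 and 81.8 CPM, and azi1 from 140, 127 and 140 CPM to 371 and 310 CPM. By contrast cep44 and the second cep85 target were not called, with log2 changes of 0.023 (95% interval -0.46 to 0.51) and 0.034 (-0.44 to 0.51). With both set-aside libraries kept under their labels the count was 3, where 2339 of 19567 targets were higher, and 8 members were among the 7271 targets at an unadjusted p under 0.05, both a smaller share than over all targets. Scaled by library size alone it was 12, while calls over all targets went from 2863 higher and 2904 lower to 1888 higher and 4259 lower, and the median of all targets moved by -0.21.

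E2f4-GFP peaks lay at the start of most of the genes. A start here is the annotated 5′ end of a target, and a peak counts when it overlaps the 1000 bp on either side. In caps without Multicilin 29 of 45 members had a peak, 64.4%, against 27.4% of all targets. In caps with Multicilin 26 had one, 57.8%, against 19.9% of all targets. Both sets held a peak for 24 members, and at each of these the peaks overlapped. Of all 24383 targets, 4850 had a peak with Multicilin and 3745 had one in both sets, so sharing was common beyond the members. How often such peaks overlap over all targets is not given here. Among targets with a mean of at least 20 CPM the shares were 67.6 and 64.9% of 37 members and 44.9 and 35.7% of 7256 targets. With 1 set per condition, called separately from 24997566 and 15313243 tags at 15693 and 12778 peaks, the presence of a peak in 1 set alone was not tested.

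Peaks were most common at the genes that were lower with dnE2f4. Of the 22 targets called at 6 h, 20 had a peak without Multicilin, 19 with it and 1 in neither set, the first cep164 target. Of the 23 not called, 9 had a peak without Multicilin and 7 with it. Read the other way, 19 of the 26 members with a peak in Multicilin caps were lower at 6 h, 73.1%, with a median log2 difference of -0.91. Of the 19 without such a peak 3 were lower, cep164, cep97 and kiaa0586, with a median over the 19 of -0.53. Among all targets tested 5.70% of those with such a peak and 1.60% of those without were lower. The genes cep97 and kiaa0586 each had a start peak in caps without Multicilin.

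Most peaks sat close to the annotated start: in Multicilin caps the centre was within 200 bp for 20 of the 26. The same share over all targets is not given here. At cep76 the peak with Multicilin spanned 969716 to 969926 on scaffold 44494, its centre 31 bp inside the gene, and the peak without Multicilin spanned 969712 to 969908. At pcm1 the peak with Multicilin spanned 940554 to 940764 on scaffold 14692, centred 59 bp downstream of the start. At pcnt it spanned 274470 to 274680 on scaffold 43242, centred 54 bp downstream. The 2 loci of cep350 differed in peaks at the start as annotated. The more abundant target had peaks centred at -101 and -40 bp from its start (negative is upstream), without and with Multicilin. The second had none at its annotated start, and the nearest centres lay at -7891 and -7908 bp from it.

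**Figure D4:**
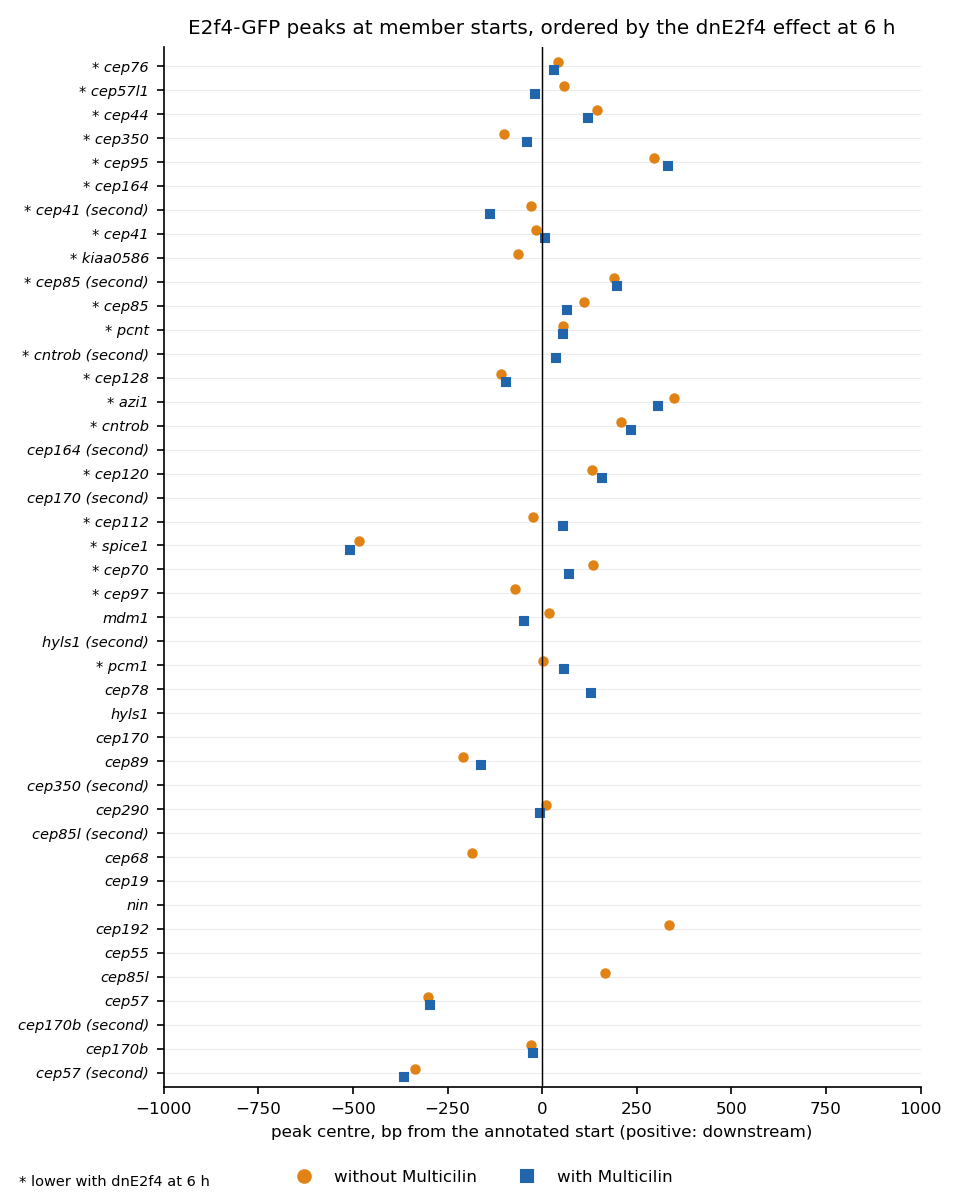
Position of the E2f4-GFP peak centre relative to the annotated start (bp, positive downstream) for each of 43 targets, ordered by the dnE2f4 difference at 6 h, in caps without (orange circles) and with Multicilin (blue squares). Of the 22 starred targets lower at 6 h, 19 carry a square; most rows without a symbol lie among the targets that were not called.

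Some members had a peak at the start and were not called at 6 h. In both peak sets these were mdm1, cep89, cep290, both cep57 targets and the first cep170b target, and in the Multicilin set alone cep78. In the set without Multicilin alone they were cep68, cep192 and the first cep85l target. The genes mdm1, cep78, cep89 and cep290 had intervals below 0 and passed with the replicate block, whereas cep57 and cep170b had differences of 0.17 and 0.26 with intervals that spanned 0. No peak in either set lay at the annotated starts of nin, cep55, cep19, cep170 or hyls1. For the first hyls1 target the nearest centres lay at -2676 and -2745 bp, without and with Multicilin, and each set held a peak in its gene body. For the second hyls1 target the nearest centre with Multicilin lay at 1823 bp.

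For 11 members a gene on the opposite strand starts within 1000 bp, so that a peak can belong to either. At cep76 the neighbour psmg2 starts 47 bp away, and it was itself lower at 6 h (log2 -0.81, edgeR adjusted p = 0.0477). At spice1 the neighbour zdhhc23 starts 411 bp away and was lower as well (log2 -1.06, edgeR adjusted p = 0.00653). Over all targets 2.57% were lower at 6 h. The other neighbours were not called, among them tmtc3 beside cep290 (log2 -0.18, edgeR adjusted p = 0.721) and wbscr16 beside cep97 (log2 0.27, edgeR adjusted p = 0.526). Their log2 differences ranged from -0.69 for ptplb beside cep70 (edgeR adjusted p = 0.0775) to 0.53 for fam76b beside the first cep57 target (edgeR adjusted p = 0.473). The library kit keeps no strand, so reads from overlapping neighbours cannot be told apart.

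Partner genes of the same structures were also lower in part. The shares to set beside their counts are 2.57% of all targets and 48.9% of the members lower at 6 h. Of 19 targets of procentriole and deuterosome genes, which build new centrioles, 16 were lower with dnE2f4 at 6 h. Largest were rttn (log2 -3.07 ± 0.14, edgeR adjusted p = 4.18e-07) and plk4, the kinase that starts duplication (log2 -2.43 ± 0.27, edgeR adjusted p = 0.000847), both beyond any member described above. Of 18 targets of satellite partners 5 were lower, among them ccdc14 (log2 -1.24) and ofd1 (log2 -1.16), the latter also counted in the previous list. Of 15 targets of appendage partners 7 were lower, among them lrrc45 (log2 -1.20) and fbf1 (log2 -1.01). Of 25 targets listed as pericentriolar partners 7 were lower. Among them were the most abundant targets of tubg1, γ-tubulin, (log2 -1.41) and cetn2 (log2 -1.37). The other targets of these genes were not called, at log2 -0.74 for tubg1 and -0.10 and 0.15 for cetn2. None of these lists had a target called higher, against 0.868% of all targets. The 6 markers of multiciliated cells, foxj1, ccno, myb, dnai1, tekt2 and tubb2b, were lower with dnE2f4 at 6 h as a sum. It was 10680 to 13100 CPM in Multicilin caps and 6484 to 8594 CPM in dnE2f4 caps. The values of the single markers are not given here, and their part in the result was not tested.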

How the data were processed

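RNA-seq tables of 18 libraries and 2 E2f4-GFP peak sets were used. The deposited expected counts (estimated counts), uniquely assigned counts and FPKM come from eXpress, per the file headers. The submitters' processing notes also name STAR, Bowtie2, Bowtie, DESeq and HOMER, with no version. Peaks were called by the authors with HOMER in 1 run per condition against a pooled input, at an FDR of 0.001 and 4-fold over input and local region, per the file headers. The name of the tag directory there reads as both replicates joined. The deposited peak score was not used. Positions are on JGIv7b scaffolds.

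Estimates were rounded to whole numbers, and targets with low counts were removed by filterByExpr. After TMM scaling, each group in 14 libraries was given its own mean in edgeR 4.0.16 (R 4.3.3), and contrasts were tested by the robust form of its quasi-likelihood F test. P-values were adjusted by Benjamini-Hochberg over 20043 targets, and targets passed under 0.05. The SE is the log2 fold change divided by the square root of F, and its interval uses the fit's degrees of freedom. The code was tested on simulated data. DESeq2 1.42.0, library size alone, no filter, unique counts, sums by symbol, the labels as deposited, only the groups compared, a replicate block and each library left out were alternatives. Among the 11 pairs of libraries compared, all within a group and without the set-aside 9 h pair, none was a duplicate (lowest chi-square per degree of freedom 14.65). What a replicate number marks is not given in the labels. Deviations from the group mean correlated at 0.761, 0.559 and 0.655 between same-numbered libraries at 6 h, which pairs them, and at 0.249 and 0.453 at 3 h, where 2 pairs do not suffice.

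Members, lists and fit were chosen with earlier results of these data known. Values in every library are given for up to 12 symbols called at 6 h, by size, for members among the top 8 in FPKM that were not called, for pcnt, pcm1, azi1, cep290, cep164, cep192, nin and cep55, and for members called against the rest. Other members whose values are given, such as second targets, were added after their values were seen. 1 symbol is included in the counts and is not reported here by itself.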

Additional observations from a re-analysis of the deposited data

Results flagged for a closer look

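Signals opposite to the labels appeared in both libraries kept out of the fit. The e2f4 transcript stood at 1427 CPM in the library labelled Multicilin 9 h replicate 2, far above the 14.1 to 36.1 CPM of the other Multicilin libraries. The centrosomal and satellite members held 1.38% of fragments in the library labelled dnE2f4 9 h replicate 2, above the 0.667 and 0.682% of the other dnE2f4 libraries at 9 h, the first of them scored on the other target set. The labels were kept as given, and the cause was not tested.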

How the results depend on the processing

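The members called for dnE2f4 at 3 h numbered 17 by DESeq2, 5 of 33 in sums by symbol, 0 with the labels as deposited and 0 in the groups compared alone. At 6 h they numbered 0 with the labels as deposited. At 9 h they numbered 28 by DESeq2, where 849 of 14976 targets were lower, 20 in sums by symbol, and 0 with the labels as deposited or in the groups compared alone. With the labels as deposited no target of any gene was called for dnE2f4 at 3, 6 or 9 h, of 19567 tested. In the groups compared alone hardly any target was called at 3 h (1 lower and 1 higher of 18414) or at 9 h. From 6 to 9 h in Multicilin caps 12 members passed with library size alone and 3 with the labels as deposited. Leaving out each library in turn gave 0 to 12 calls at 3 h, 13 to 21 at 6 h, 1 to 16 at 9 h, 37 to 39 from 3 to 6 h in Multicilin caps, 29 to 34 in dnE2f4 caps, 13 to 18 from 6 to 9 h, and 0 to 0 for the change between times. A left-out library that leaves 1 in a group assumes that library to vary like the others. The cep55 difference at 6 h turned positive with library size alone (0.068), and ranged from -0.16 to 0.055 with each 6 h library left out. The cause was not tested for any of these.

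With replicate number as a block in the 14 libraries the calls were 20 at 3 h, 33 at 6 h, 32 at 9 h and 30 from 6 to 9 h, 1 of these 30 lower. Over all targets the block called 3.1, 15.9, 10.9 and 45.9%. Those shares count both directions, while all member calls at 3 and 6 h were lower. Lower over all targets were 562 of 20043 at 3 h and 1786 at 6 h. With the 6 h groups alone, a fit added after seeing the data, 34 were called at 6 h, all lower. Over all targets that fit called 24% in both directions and 13.8% lower. Whether a number marks the same thing at 3, 6 and 9 h was not tested. Members with a start peak in Multicilin caps numbered 26 to 28 under other windows. Precision is limited at 9 h by 1 dnE2f4 library and, for targets under 2 CPM, by depth. Targets with a near-identical copy, such as cep57, cep170b and hyls1, share fragments, so the level of each locus is uncertain. Fragments were also shared in part at the second targets of cep85, cep350, cep164 and cep41, where 57.6, 52.3, 54.0 and 72.9% were uniquely assigned. Comparisons between the 2 loci of these genes carry the same limit.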
